A study of Mus musculus with 2 samples.

Results

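The cells described here are the endocardial and Npr3-positive endothelial cells of the newborn mouse heart, referred to below as endocardial-like cells. They were 358 of the 5117 cells that passed an endothelial gate and of the 13502 cells kept in all, with 267 at postnatal day 1 (P1) and 91 at postnatal day 7 (P7). Members were selected on detected genes and no clustering was used. A barcode was kept if it had 200 to 8000 genes and a mitochondrial share of at most 20% among its unique molecular identifiers (UMIs), the random tags by which copies of one captured transcript are counted as a single molecule. An endothelial cell held at least 3 UMIs of Pecam1, Cdh5 and Egfl7 together and no UMI of Ptprc, a leukocyte gene, or Pdgfra, a fibroblast gene. A gated cell was taken as endocardial-like when at least 2 of the 4 genes Npr3, Cytl1, Tmem108 and Plvap were detected and when this number exceeded that of each of 4 other lists, for Aplnr-type capillary, Car4-type capillary, arterial and lymphatic endothelium.

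The endocardium is the endothelium that lines the chambers of the heart and covers its valves. During development part of it undergoes an endothelial to mesenchymal transition in the cushions, under the control of BMP, TGF-beta and Notch signals, and so forms the valve mesenchyme. Npr3 encodes the clearance receptor for natriuretic peptides, which binds and removes them, and it is a widely used marker of endocardium. Chamber endocardium signals to the underlying heart muscle through ligands such as the neuregulin encoded by Nrg1.

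Hearts of P1 and P7 mice were compared in the context of a study of hypoxia in the neonatal heart. At each age 3 hearts of a single litter were pooled and digested with collagenase II, for 20 min at P1 and for 45 min at P7, red cells were lysed and live cells were sorted by exclusion of 7-AAD. The sources name neither a strain nor a genetic change for these animals. One 3′ library was prepared per age, so the ages could not be compared by any test across replicates, and age, litter, digestion time and library cannot be told apart. The pools also differed in sex. Xist, transcribed from the inactive X chromosome, had 4752 UMIs in 265 of the 267 endocardial-like cells of P1 and 0 at P7, whereas 4 Y-linked genes had 0 UMIs at P1 and 257 UMIs in 84 of the 91 cells at P7.

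The P1 file held 7836 barcodes with 63585504 UMIs and the P7 file 9077 barcodes with 98346195 UMIs. In total 18 barcode sequences occurred in both libraries, and none of them belonged to an endocardial-like cell. The endocardial-like cells held 3752837 UMIs at P1 and 1191322 UMIs at P7, with medians of 13800 and 12113 UMIs per cell, so 1 UMI corresponded to 0.266 CPM (UMIs per 1000000 summed UMIs of the same cells) at P1 and to 0.839 CPM at P7. The remaining gated cells were shallower, with medians of 9365 UMIs at P1 and 7526 UMIs at P7. All 95% intervals given below are exact and cover counting error only, not the variation between hearts.

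The endocardial-like cells made up 15.5% of the gated endothelium at P1 (267 of 1722, 95% Clopper-Pearson interval 13.8 to 17.3) and 2.68% at P7 (91 of 3395, 2.16 to 3.28). The share was thus lower at P7. Because the rule counts detected genes, the gate was also applied after each cell had been thinned to 2000 UMIs, and the shares were then 12.2% (178 of 1464, 10.5 to 13.9) and 1.91% (57 of 2988, 1.45 to 2.46). They were 5.35% of all cells kept at P1 and 1.07% of those kept at P7. The longer digestion at P7 moves with this share, and its part in it was not tested. Over the same interval the Aplnr-type capillary share was 17.6% at P1 and 44.7% at P7.

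The 4 genes of the rule are a description of the selection and not a result. Npr3 (ENSMUSG00000022206) lies on chromosome 15 at 11839896 to 11907287 of GRCm38 (GENCODE M21), and it had 661 CPM at P1 and 567 CPM at P7, with a UMI in 87.3% and 76.9% of the cells. Cytl1 (chromosome 5, 37735519 to 37739820), a small secreted protein, had 286 and 390 CPM in 43.4% and 54.9% of the cells. Tmem108 (chromosome 9, 103482947 to 103761837), a membrane protein, had 804 and 750 CPM. Plvap (chromosome 8, 71497765 to 71511752), which forms the diaphragms of endothelial fenestrae and caveolae, had 1214 CPM at P1 and 719 CPM at P7. All 4 genes were detected together in 100 of 267 cells at P1 and in 36 of 91 at P7. The most frequent combination at P1 was Npr3, Tmem108 and Plvap without Cytl1, in 118 cells.

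At P1 cells just inside and just outside the rule differed in some genes that the rule did not use. The 39 P1 cells with exactly 2 of the 4 genes had 75.4 CPM of Gata4 and 302 CPM of Cgnl1. A further 58 gated P1 cells with at least 2 of the 4 genes were left out because another list was equal or ahead, and these had 34.3 CPM of Gata4 and 112 CPM of Cgnl1. Gated P1 cells with exactly 1 gene, 281 in number, had 11.9 CPM of Gata4 and 33.7 CPM of Cgnl1. Fabp4, a capillary fatty acid carrier, ran the other way in these 3 sets, with 4001, 10645 and 22252 CPM. Other genes did not separate the first 2 sets, since Vwf had 271 and 262 CPM and Tmem100 159 and 212 CPM. At P7 the 18 cells with exactly 2 genes had 33.6 CPM of Gata4, below the 50.7 CPM of the 33 cells left out, while Cgnl1 was at 362 and 174 CPM. The rule therefore does not mark a gap between cell types.

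The label was compared with endocardial genes outside the rule. Genes were compared within each library between the endocardial-like cells and the other gated endothelium, over 12016 genes with at least 20 summed UMIs in each library. Of these, 1063 (8.85%) were at least 2-fold higher in the endocardial-like cells in both libraries and 710 (5.91%) were at least 2-fold lower in both. All 15 genes of an endocardial identity list were higher, with a median log2 ratio of 3.45 at P1 and 4.06 at P7. Genes that did not choose the cells therefore pointed the same way as the label at both ages. The list was chosen with earlier results of these data known, so it is not an independent check of the label.

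Among the transcription factors of that list, Gata4 had 75.4 CPM at P1 (66.9 to 84.7) and 89.8 CPM at P7, against 8.31 and 5.47 CPM in the other gated endothelium. Gata5 had 15.5 and 29.4 CPM against 0.386 and 0.429 CPM. Hand2 had 183 and 243 CPM against 16.7 and 15.8 CPM. These 3 genes belong to the cardiac transcription factor network. Nfatc1, which marks endocardium and is required for valve formation, had 66.6 CPM at P1 and 71.3 CPM at P7, against 23.8 and 24.8 CPM. Nfatc1 was not particular to these cells, since the lymphatic class had 151 CPM at P1 and 115 CPM at P7.

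Vwf (chromosome 6, 125546774 to 125686679), the von Willebrand factor that carries platelets to injured vessel walls, was given as a marker but was not used by the rule. It had 404 CPM at P1 and 640 CPM at P7, against 41.9 and 20.1 CPM in the other gated endothelium. A Vwf UMI was found in 79.8% of the endocardial-like cells at P1 and 80.2% at P7, or 44.3% and 57.8% after thinning to 2000 UMIs, which left out 3 P1 cells and 1 P7 cell of lower depth. In the other gated cells the shares were 9.21% and 3.78%, or 4.28% and 1.64% after thinning. The cells with at least 2 of the 4 genes that were left out had levels of 262 CPM at P1 and 388 CPM at P7, nearer to the endocardial-like cells but below them at both ages, with intervals that did not overlap. The endocardial-like cells with exactly 2 of the genes had 271 CPM (227 to 321) and 332 CPM (263 to 414), with intervals that overlapped those of the cells left out at both ages. Cdh11, a cadherin of mesenchymal and valve cells, had 597 and 713 CPM against 6.89 and 6.01 CPM, and Cgnl1, a junction protein, had 487 and 789 CPM against 39.0 and 47.4 CPM.

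**Figure D1:**
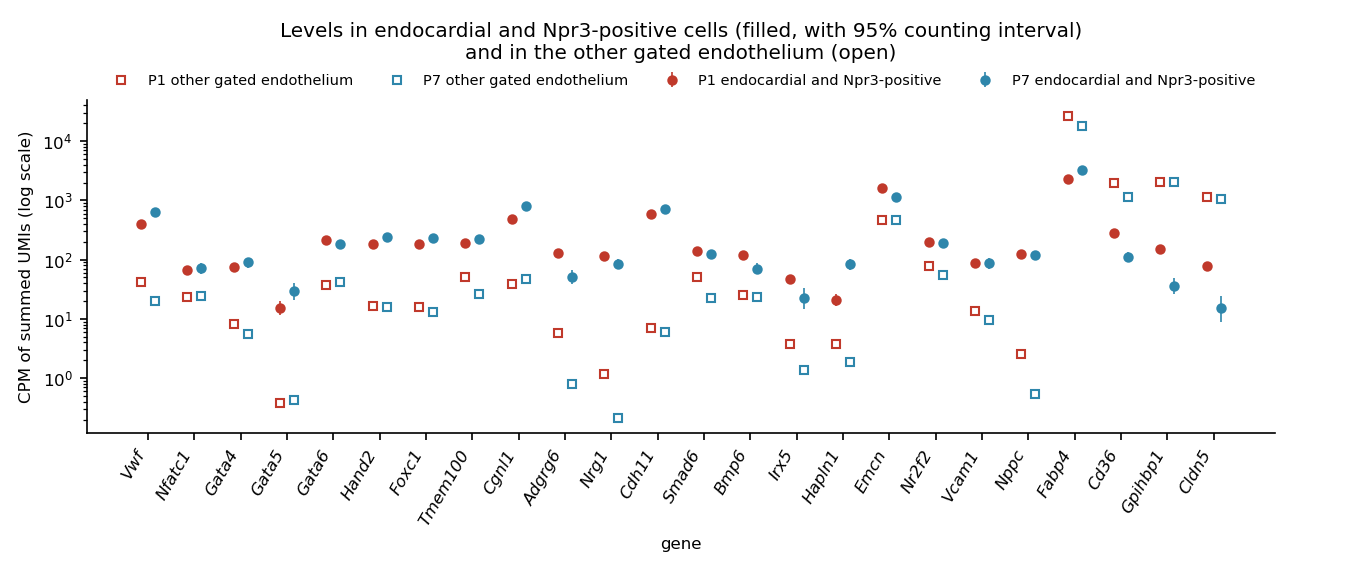
CPM of summed UMIs (log axis) of marker genes at P1 and P7 in the endocardial-like cells (filled, bars are 95% counting intervals) and in the other gated endothelium (open). The genes from Vwf to Nppc, which include venous genes such as Emcn, lie above the other endothelium at both ages, whereas Fabp4, Cd36, Gpihbp1 and Cldn5 lie below it.

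The genes with the largest ratios over the other gated endothelium included several ligands and receptors. Inhba, a subunit of the ligand activin A, had a log2 ratio of 7.31 at P1 and 6.71 at P7, but it was detected in only 25 of 267 cells at P1 and 23 of 91 at P7. Chrm2, a muscarinic acetylcholine receptor, had 53.3 CPM at P1 and 22.7 CPM at P7, against 0.451 and 0.0358 CPM, the last from a single UMI. Nrg1 had log2 ratios of 6.57 and 8.52. Nppc, which encodes the C-type natriuretic peptide that NPR3 binds, had 124 CPM at P1 and 120 CPM at P7, against 2.58 and 0.537 CPM. Almost all of it came from few cells, since only 7 P1 cells and 6 P7 cells held a Nppc UMI, and a single cell held 68.5% of the UMIs at P1 and 73.4% at P7.

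Other genes in this group were spread over more of the cells. The collagen gene Col23a1 was detected in 72.3% and 69.2% of the cells and the matricellular protein gene Smoc1 in 56.2% and 56.0%. Epha7, an ephrin receptor, had 101 and 106 CPM against 1.16 and 0.859 CPM. Mpzl2, Prr15, Comp and Cdh11 also belonged to the group.

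The lower genes included those by which capillaries take up fatty acids. Of 12 capillary lipid uptake genes, 10 were at least 2-fold lower in the endocardial-like cells in both libraries, beside 5.91% of all genes tested. The list medians were -3.02 at P1 and -3.13 at P7. The rule left out cells in which a capillary list was equal or ahead, and the part of this selection was not tested. Fabp4 had 2287 CPM at P1 and 3204 CPM at P7, against 26975 and 18254 CPM, and Cd36, a fatty acid transporter, had 281 and 112 CPM against 1941 and 1146 CPM. The other 2 genes were higher, and one of them, Fabp5, had log2 ratios of 1.84 and 1.36. Tlx1 and Prdm1, both transcription factors, had no UMI in any endocardial-like cell. The exact interval allows up to 0.983 CPM at P1 and 3.1 CPM at P7, against 15.4 and 15.9 CPM of Tlx1 in the other endothelium. Haemoglobin transcripts were also lower, with 6.13 CPM of Hbb-bs at P1 and 16.8 CPM at P7 against 886 and 652 CPM. The share of cells with a Hbb-bs UMI was 8.24% and 17.6%, against 7.29% and 23.1% of the other gated cells, so at P1 the level of the latter came from 106 of 1455 cells. After thinning to 2000 UMIs the shares were 1.52% and 5.56%, against 2.63% and 8.21%.

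Pathway lists were read in the same way, beside the 8.85% of all genes tested that were higher and the 5.91% that were lower. In the BMP and TGF-beta list 9 of 21 genes were higher and 1 was lower. The receptor gene Bmpr1a had log2 ratios of 3.85 at P1 and 4.41 at P7, the ligand genes Bmp6 2.22 and 1.57 and Tgfb2 2.88 and 2.33, and the target gene Id2 3.63 and 3.07. In the Notch list 4 of 16 genes were higher, namely Notch1, Notch2, the ligand gene Dll1 and the target gene Hey2, and 4 were lower, among them the ligand genes Dll4 and Jag2. Of 9 genes of endothelin and nitric oxide signalling 3 were higher and 2, Ednra and Cav1, were lower. The former included Edn1, the endothelin-1 precursor gene, with log2 ratios of 3.28 and 3.70. Of 11 venous genes 7 were higher, among them Emcn, Nr2f2 and Vcam1. In the imprinted growth gene list 7 of 12 were higher, among them Igf2, a growth factor gene, with log2 ratios of 3.35 and 3.54. The long noncoding RNA H19 had 8130 CPM at P1 and 4550 CPM at P7, against 919 and 428 CPM in the other gated endothelium.

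Against single classes the counts were of the same order. Over 10891 genes tested against Aplnr-type capillary cells 956 were higher and 580 lower in both libraries, and over 10466 tested against Car4-type cells 926 were higher and 561 lower. Against the arterial class, which was smaller, 527 of 9326 were higher and 441 lower. Cytl1, a gene of the rule, reached 166 CPM in the arterial class at P1, and Plvap 249 CPM, so these 2 genes were not restricted to the endocardial-like cells.

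Transcripts of fibroblasts were present among the endocardial-like cells, and the level depended on the gene. The reference was the 1022 P1 cells and 1749 P7 cells with a Pdgfra UMI and no UMI of Pecam1, Cdh5, Egfl7 or Ptprc. These are called Pdgfra-positive cells below. Dcn, which encodes the proteoglycan decorin, had 848 CPM in the endocardial-like cells of P1, or 12.4% of the level in Pdgfra-positive cells, against 1.31% in the other gated endothelium. At P7 it had 1873 CPM, or 15.2% against 1.64%. Lum, a related proteoglycan gene, stood at 12.8% and 16.7% of the Pdgfra-positive level. Of the fibrillar collagen genes, Col3a1 stood at 4.81% at P1 and 7.15% at P7, and Col1a1 at 0.858% and 2.29%. Tcf21, a fibroblast transcription factor gene, stood at 0.686% and 1.66%.

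The 10 fibroblast genes were thus not present in the proportions of the Pdgfra-positive cells. In the other gated endothelium the same 10 genes lay between 1.07% and 2.95% of the Pdgfra-positive level at P1 and between 1.64% and 3.31% at P7. After thinning to 2000 UMIs a Dcn UMI was found in 37.9% of the endocardial-like cells at P1 and 48.9% at P7, against 9.02% and 21.3% of the other gated cells. The summed list was concentrated, since 24 of 267 cells at P1 and 10 of 91 at P7 held 50% of its UMIs.

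**Figure D2:**
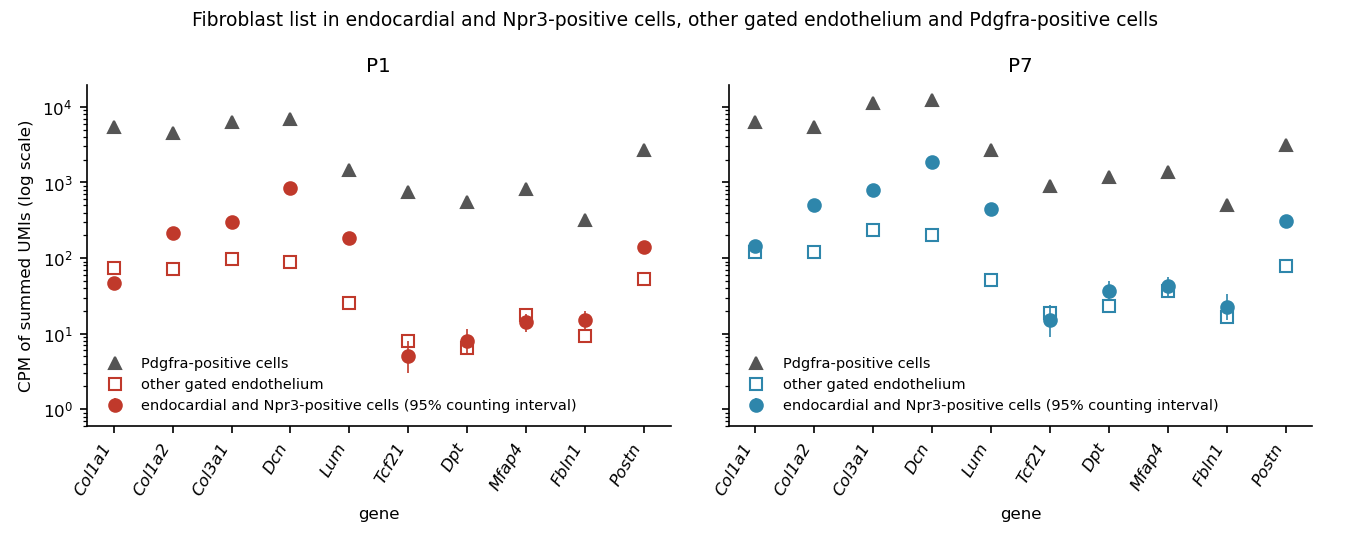
CPM of summed UMIs (log axis) of the 10 fibroblast genes at P1 and at P7 in Pdgfra-positive cells (triangles), endocardial-like cells (circles with 95% counting intervals) and the other gated endothelium (squares). Dcn and Lum of the endocardial-like cells lie well above the other endothelium at both ages, whereas Col1a1, Tcf21 and Mfap4 lie close to it.

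Markers of other cell types were low. The 13 cardiomyocyte genes summed to 189 CPM at P1 and 203 CPM at P7, against 496 and 749 CPM in the other gated endothelium, with Tnnt2 as the most abundant gene. The 11 macrophage and monocyte genes summed to 52.0 and 25.2 CPM, against 54.5 and 64.3 CPM, with S100a9 as the most abundant at P1 and Cd14 at P7. The 10 smooth muscle and pericyte genes summed to 154 and 201 CPM, against 336 and 830 CPM, and were led by Rgs5. The erythroid list summed to 14.9 and 38.6 CPM, against 1982 and 1319 CPM, and Hba-a2, Alas2 and Slc4a1 had no UMI at either age. Of the 7 epicardial genes Upk3b, Lrrn4 and Muc16 had no UMI at either age, and Wt1 supplied most of the sum. The lung list was at 44.8 CPM at P1 and 9.23 CPM at P7, against 162 and 14.1 CPM. Its most abundant gene at P1, Foxf1, had 49 UMIs in 6 P1 cells and 0 at P7, and 7 P1 cells held UMIs of at least 2 lung genes. The part of these transcripts in the ratios given below was not tested, except where a value without such cells is given.

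The endocardial-like cells were divided by Npr3, since a cell could also be chosen by the other 3 genes of the rule. Npr3 is itself a gene of the rule, so every cell without an Npr3 UMI was chosen by the other 3 genes alone. The part of this selection in the differences between cells with and without an Npr3 UMI was not tested. At P1 a UMI of Npr3 was present in 233 cells and absent from 34, with median depths of 13840 and 13190 UMIs. At P7 it was present in 70 cells and absent from 21, with median depths of 12015 and 12792 UMIs. Gata4 and Hand2 were found on both sides. Gata4 had 74.7 CPM with Npr3 and 80.0 CPM without it at P1, and 95.3 and 70.9 CPM at P7. Hand2 had 184 and 172 CPM at P1, and 274 and 138 CPM at P7.

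Of the 12 genes of the valve endocardium list 6 had a higher level in the cells without an Npr3 UMI at both ages, namely Klf2, Klf4, Postn, Cldn11, Wnt4 and Wnt9b, and 3 had a higher level in the cells with one at both ages. Of all 10510 genes tested between the ages, 23.7% were higher without Npr3 at both ages and 33.7% were higher with it. Without the cell with the most UMIs in each set, a comparison chosen after seeing the data, these counts were 5 and 3, as Cldn11 changed its order at P1, and the shares of all genes were 14% and 48.3%. Klf2, a transcription factor gene induced by shear stress, had 669 CPM with Npr3 and 1579 CPM without it at P1, and 1752 and 2949 CPM at P7, where all 21 cells without Npr3 held a Klf2 UMI. Klf4, a related factor gene, had 177 and 570 CPM at P1, and 239 and 519 CPM at P7. The summed level of the list, of which Klf2 was the most abundant gene, was 1277 CPM with Npr3 and 2901 CPM without it at P1, and 2679 and 5025 CPM at P7. Bmp4 of the same list had 61.3 and 53.3 CPM at P1, and 174 and 134 CPM at P7, with intervals that overlapped at both ages. Over all endocardial-like cells the list summed to 1488 CPM at P1 and 3207 CPM at P7. In the other gated endothelium it summed to 1467 and 1749 CPM, so at P1 the sum did not set these cells apart.

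Wnt4 and Wnt9b of this list, and Hapln1 of the identity list, rested on few cells, so each is given also without the cell with the most UMIs in each set. Wnt9b, a ligand gene of valve endocardium that responds to flow, had 5.51 CPM with Npr3 and 158 CPM without it at P1, and 3.69 and 84.5 CPM without those cells. At P7 it had 30.3 and 149 CPM, and 2.23 and 66.2 CPM without them. Hapln1, which encodes a link protein of hyaluronan matrix, had 6.74 and 117 CPM at P1 (3.70 and 78.0 CPM without them) and 56.3 and 175 CPM at P7 (33.3 and 74.4 CPM, with intervals of 22.5 to 47.6 and 44.1 to 118 that overlapped). The ligand gene Wnt4 had 14.7 and 129 CPM at P1 (10.2 and 62.8 CPM). At P7 Wnt4 had 73.6 and 280 CPM, but 30.1 CPM (19.8 to 43.7) and 57.9 CPM (31.7 to 97.1) without the cells with the most UMIs, so that these intervals overlapped too.

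In other lists, Tbx20, a cardiac transcription factor gene, had 24.5 CPM with Npr3 and 107 CPM without it at P1, and 62.8 and 161 CPM at P7. Inhba had 108 and 498 CPM at P1 and 247 and 351 CPM at P7, but the order at P7 was reversed without the cell with the most UMIs in each set (143 and 34.8 CPM). Nppc had 15.6 and 851 CPM at P1 but 117 and 131 CPM at P7, and it was found in at most 5 cells of any set. Without the cell with the most UMIs in each set Nppc had 1.23 and 208 CPM at P1. At P7, where that cell held 105 of 108 UMIs in the set with Npr3, it then had 3.34 CPM (0.69 to 9.76) and 33.1 CPM (14.3 to 65.2). The opposite order was seen for Edn1, with 292 CPM in cells with Npr3 and 67.7 CPM without it at P1, and with 260 CPM and 0 UMIs at P7. Cdh11 and Emcn were also higher with Npr3 at both ages, and the 15 endocardial identity genes summed to 2700 CPM with Npr3 and 1825 CPM without it at P1, and to 3288 and 2042 CPM at P7.

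Other lists moved with this division. Fabp4 had 1871 CPM with Npr3 and 5070 CPM without it at P1, and 2905 and 4233 CPM at P7. The immediate early and digestion genes summed to 4225 and 5800 CPM at P1, and to 4236 and 8179 CPM at P7. The fibroblast list was at 1792 and 1667 CPM at P1, and at 3290 and 7287 CPM at P7, or 3092 and 4447 CPM without the cell with the most UMIs in each set. The part of these transcripts in the division was not tested. A cell without an Npr3 UMI may also have carried the transcript, since detection in the whole set was 60.6% at P1 and 52.2% at P7 after thinning.

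**Figure D3:**
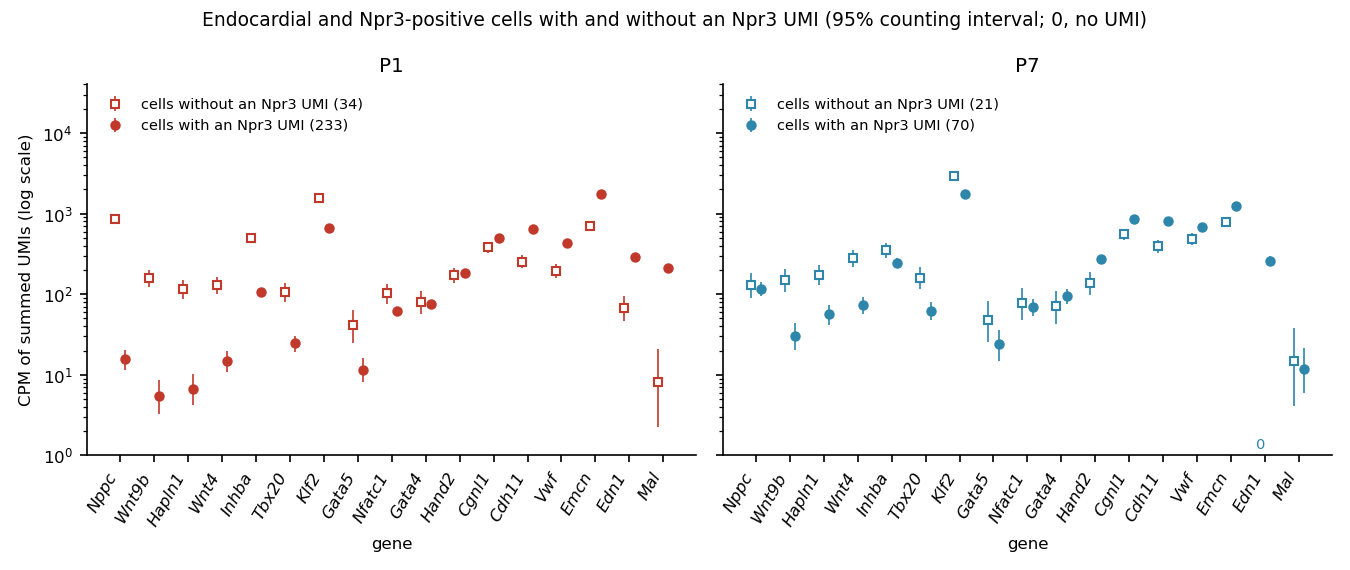
CPM of summed UMIs (log axis) in the endocardial-like cells with an Npr3 UMI (circles) and without one (squares) at P1 and at P7, with 95% counting intervals. Tbx20 and Klf2, and Wnt9b, Hapln1 and Wnt4 from few cells, are higher in cells without Npr3 at both ages, Edn1 and Emcn are higher in cells with it, and the intervals of Gata4 overlap.

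P1 was compared with P7 in the endocardial-like cells over 10510 genes with at least 20 summed UMIs, as the log2 ratio of CPM with 0.5 counts added to each sum. At least 2-fold higher at P1 were 437 genes (4.16%) and at P7 468 genes (4.45%), and the median ratio of all genes tested was -0.08. For 716 of these genes the 95% counting interval of the ratio also excluded 0. The other gated endothelium was compared in the same way as a reference from the same 2 libraries.

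In the endocardial identity list 2 of 15 genes were at least 2-fold higher at P1 and 1 was higher at P7, beside 4.16% and 4.45% of all genes tested. The median was -0.20. Those higher at P1 were Adgrg6, an adhesion receptor gene, with 128 CPM at P1 and 51.2 CPM at P7 (log2 ratio 1.31, 95% interval 0.93 to 1.73) and Irx5, a transcription factor gene, with 48.0 and 22.7 CPM (1.06, 0.49 to 1.72). Hapln1 was the gene higher at P7.

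The valve endocardium list stood lower at P1. Of its 10 genes tested 5 were at least 2-fold higher at P7 and 1 was higher at P1, beside 4.45% and 4.16% of all genes tested. The median was -0.95, against a median of -0.02 in the other gated endothelium and of -0.08 over all genes tested. Klf2 (chromosome 8, 72319033 to 72321656) had 787 CPM at P1 (759 to 816) and 2021 CPM at P7 (1941 to 2104), with a log2 ratio of -1.36 (-1.44 to -1.28). It was detected in 78.7% of the cells at P1 and 94.5% at P7, and in 51.5% and 77.8% after thinning. In the other gated endothelium the Klf2 ratio was -0.41. Klf2 was not particular to these cells, since gated cells with 0 of the 4 genes had 855 CPM at P1 and 1237 CPM at P7. The ligand gene Bmp4 had 60.2 CPM at P1 and 165 CPM at P7 (-1.46, -1.74 to -1.17). Without the cell with the most Bmp4 UMIs in each library its ratio was -1.11. Gated cells with 0 of the 4 genes had 17.0 and 35.6 CPM of Bmp4. Those with at least 2 that were left out had 83.7 and 66.3 CPM.

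Wnt4 (chromosome 4, 137277489 to 137299726) had 29.6 CPM at P1 and 120 CPM at P7 (log2 ratio -2.02, -2.39 to -1.65). It came from 24 of 267 cells at P1 and 9 of 91 at P7, and the cell with the most UMIs held 30.6% and 42.7% of them. Without that cell in each library the ratio was -1.77, but it was -0.27 with the gate applied after thinning and -0.02 without the deepest 10% of the cells, an alternative chosen after seeing the data. Wnt9b had 25.3 and 57.1 CPM (-1.18), from 18 and 8 cells. Hapln1, listed under identity and cushion matrix, had 21.1 and 83.1 CPM (-1.98, -2.43 to -1.54), from 19 and 13 cells. Both Hapln1 and Wnt9b changed sign when the gate was applied after thinning, with ratios of 0.86 and 0.085, so all 3 values depend on which cells were taken. The division by Npr3 moves with the list too, since 34 of 267 cells at P1 and 21 of 91 at P7 had no Npr3 UMI, and its part in these ratios was not tested. Without the cell with the most UMIs in each set, the P1 and P7 levels of Wnt4 were 10.2 and 30.1 CPM in cells with Npr3 and 62.8 and 57.9 CPM in cells without it. Those of Hapln1 were 3.70 and 33.3 CPM with Npr3 and 78.0 and 74.4 CPM without it. Klf2 stayed higher at P7 in both sets, with 640 and 1645 CPM and with 1376 and 2887 CPM.

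Cldn11, a tight junction gene, was the valve list gene higher at P1, with 60 and 9 UMIs (log2 ratio 1.02, 0.06 to 2.28), and its ratio in the other gated endothelium was -1.62. Postn, the periostin gene, was the fifth gene higher at P7, with 138 and 306 CPM (-1.14). It also belongs to the fibroblast list, in which 9 of 10 genes were at least 2-fold higher at P7, with a median of -1.34, or -0.67 among the cells with an Npr3 UMI. In the other gated endothelium 6 of those 10 genes were higher at P7 and the median was -1.04. Dcn had a ratio of -1.14 in the endocardial-like cells and -1.16 in the other gated endothelium. The part of stromal transcripts in the values of Postn, Col1a1 and Col3a1 was not tested.

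**Figure D4:**
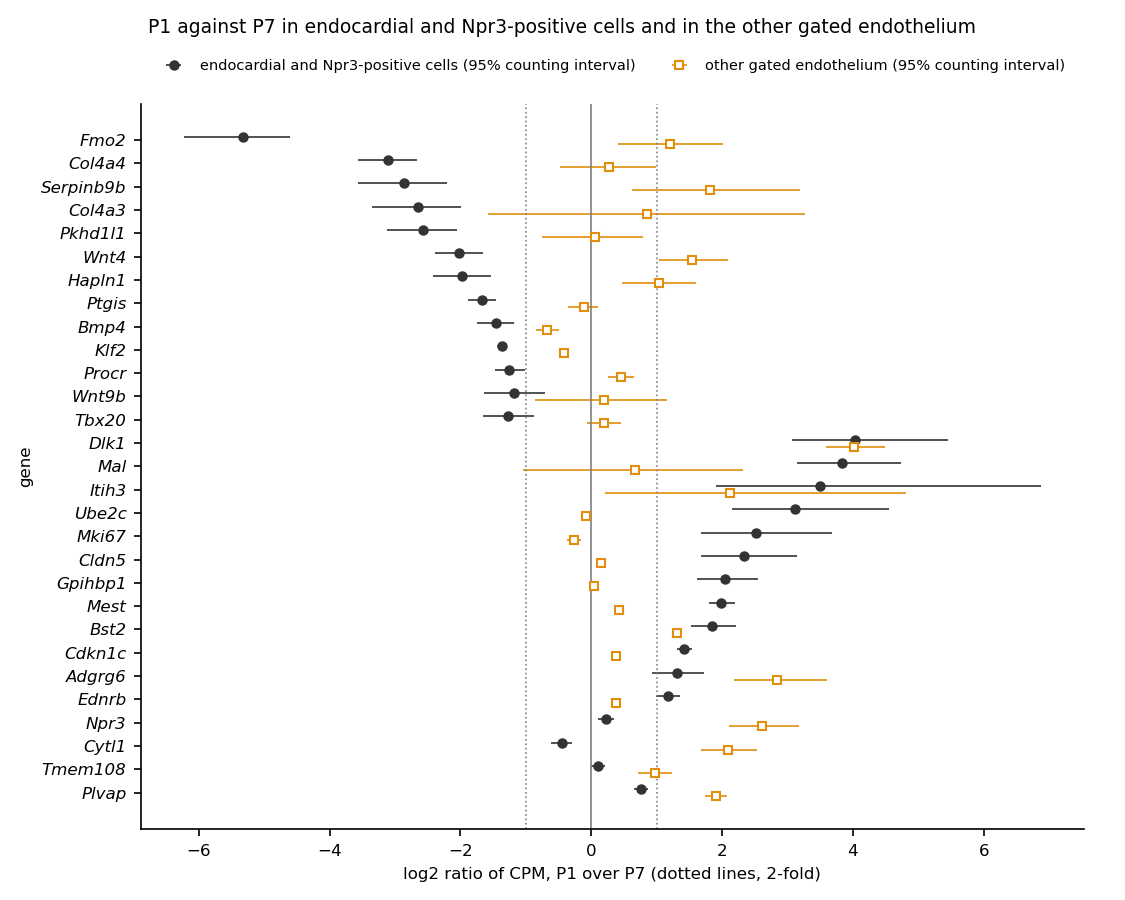
The log2 ratio of CPM at P1 over P7 for named genes in the endocardial-like cells (circles) and in the other gated endothelium (squares), with 95% counting intervals and dotted lines at 2-fold. Fmo2, Serpinb9b, Wnt4 and Hapln1 lie on opposite sides of 0 in the 2 populations, and the genes of the rule are shown at the bottom as a description only.

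Outside the lists, and apart from a gene model with a log2 ratio of -5.94, the largest ratio towards P7 was that of Fmo2 (chromosome 1, 162874317 to 162898726), a flavin-containing monooxygenase gene, with 4.0 CPM at P1 and 165 CPM at P7 (log2 ratio -5.32, -6.23 to -4.61). It was confined to 8 P1 cells and 10 P7 cells, and one P7 cell held 44.9% of its UMIs. Without the cell with the most UMIs in each library the ratio was -4.90. The collagen IV genes Col4a4 (15.5 and 133 CPM, ratio -3.10) and Col4a3 (7.73 and 48.7 CPM, ratio -2.64), which lie next to each other on chromosome 1, were more widely spread. Col4a4 was found in 11.2% of the cells at P1 and 39.6% at P7. By contrast Col4a1 and Col4a2, the collagen IV chains of most basement membranes, had ratios of 0.63 and 0.69 and did not reach 2-fold.

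Further genes of this group were Pkhd1l1, with 12.5 CPM at P1 and 74.7 CPM at P7 (log2 ratio -2.57), and Spon1, which encodes a matrix protein, with 27.2 and 108 CPM (-1.99). Tppp3 (-2.04), Nuak1 (-2.22), Kcnn4 (-2.41), Serpinb9b (-2.86) and Nr4a1 (-1.98) were the others. Serpinb9b was detected in 14 and 7 cells, and its ratio was 0.083 when the gate was applied after thinning. The haemostasis list had a median of -0.42. In it 3 of 12 genes were at least 2-fold higher at P7 and none at P1, beside 4.45% and 4.16% of all genes tested. Ptgis, the prostacyclin synthase gene, had 94.9 CPM at P1 and 303 CPM at P7 (-1.68, -1.89 to -1.46) and was detected in 36.7% and 75.8% of the cells, or 13.6% and 34.4% after thinning. Procr, the endothelial protein C receptor gene, had 98.9 and 235 CPM (-1.25, -1.48 to -1.02). Vwf itself had a ratio of -0.66 (-0.79 to -0.54) and did not reach 2-fold.

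Counts of Notch and BMP genes stand beside the 4.16% of all genes tested that were higher at P1 and the 4.45% higher at P7. In the Notch list 4 of 15 genes were at least 2-fold higher at P7 and none at P1, with a median of -0.34. The ligand gene Jag1 had 21.9 CPM at P1 and 53.7 CPM at P7 (log2 ratio -1.30), but its ratio was -1.09 in the other gated endothelium as well, and Dll1 had 36.2 and 74.7 CPM (-1.05). Maml1 had 36 UMIs at P1 and 23 at P7, and Lfng 22 and 14 UMIs, with ratios of -1.02 for both, but among cells with an Npr3 UMI the ratio of Lfng was 0.29. In the BMP and TGF-beta list 1 of 22 genes, the coreceptor gene Tgfbr3 (1.62), was higher at P1, and Bmp4 and Tgfb3 (-1.47) were higher at P7. The list median was -0.10, close to that of all genes. In the list of mesenchymal transition and cushion matrix genes 5 of 14 were higher at P7, namely Hapln1, Col1a1 (-1.64), Col3a1 (-1.42), Tbx20 (-1.27) and Twist1 (-1.27), and Msx1, with 29 and 4 UMIs (1.06, -0.31 to 3.17), was higher at P1. The median was -0.27. Without the cell with the most Col1a1 UMIs in each library its ratio was -0.89.

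The genes with the largest ratios towards P1 included several with no UMI at P7. Igf2bp1, an RNA-binding protein gene of foetal tissues, had 60 UMIs at P1 and 0 at P7, and the exact counting interval of the log2 ratio began at 2.32. Against a floor of 3 UMIs for the P7 library, which is below the exact limit, the P1 level was 6.35-fold. Igf2bp1 had a log2 ratio of 3.84 in the other gated endothelium. Rnaset2b had 73 UMIs and 0, but it has a near-identical copy, Rnaset2a, and its count is uncertain. Tsix, which is antisense to Xist, had 66 UMIs at P1 and 0 at P7. The pools also differed in sex, and the part of sex in this ratio was not tested. The imprinted gene Dlk1, a Notch-related growth regulator, had 102 CPM at P1 and 5.88 CPM at P7 (log2 ratio 4.02, 3.07 to 5.45), with a ratio of 4.01 in the other gated endothelium.

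Mal (chromosome 2, 127633226 to 127656695), which encodes a membrane proteolipid, had 186 CPM at P1 and 12.6 CPM at P7 (log2 ratio 3.84, 3.15 to 4.73). It was detected in 103 of 267 cells at P1 and 8 of 91 at P7, and in 22.7% and 1.11% of the cells after thinning. In the other gated endothelium it had 0.451 and 0.286 CPM. At P1 Mal was higher with Npr3, at 212 CPM in cells with an Npr3 UMI and 8.20 CPM in cells without one. At P7 the levels were 11.9 and 14.9 CPM, from 11 and 4 UMIs, with intervals that overlapped. Itih3, whose product binds hyaluronan, had 88 and 2 UMIs (3.49, 1.91 to 6.87). Cpa1 had 112 UMIs at P1 and 1 at P7 (4.57, 2.64 to 10.47), but a single P1 cell held 85.7% of them. Oit3 (3.61) and the interferon-induced Iigp1 (3.55, 1.97 to 6.94, with 92 and 2 UMIs) were also in this group, which was completed by Aspm and Anln of the cell cycle and by 1 gene model.

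The cell cycle list had a median of 1.68, against a median of 0.01 in the other gated endothelium. In it 15 of 24 genes were at least 2-fold higher at P1 and 1 at P7, beside 4.16% and 4.45% of all genes tested. Those higher at P1 included the mitotic genes Top2a, Kif11, Aurkb, Bub1b and Cdc20. Ube2c, a ubiquitin pathway gene of mitotic exit, had 54.6 CPM at P1 and 5.88 CPM at P7 (log2 ratio 3.12, 2.15 to 4.55), and the proliferation marker Mki67 50.6 and 8.39 CPM (2.53, 1.68 to 3.68). The cyclin genes Ccna2 (2.92, 1.31 to 6.31) and Ccnb1 (2.79, 1.18 to 6.18) had 59 and 54 UMIs at P1 and 2 UMIs each at P7. The replication licensing gene Mcm2 was the gene higher at P7, with 15.2 and 34.4 CPM (-1.18), and Mcm3, Mcm5 and Mcm6 had ratios between -0.75 and -0.64.

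These values came from very few cells. At P1 7 cells held 50% of the UMIs of the cell cycle list and at P7 8 cells did, and Mki67 was detected in 19 of 267 cells and 4 of 91. After thinning, UMIs of at least 2 genes of the list were found in 17.4% (13.0 to 22.5) of cells at P1 and in 17.8% (10.5 to 27.3) at P7, so no difference in that share was detectable at this depth. The list summed to 1074 CPM at P1 and 572 CPM at P7 in the endocardial-like cells and to 2004 and 2018 CPM in the other gated endothelium.

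**Figure D5:**
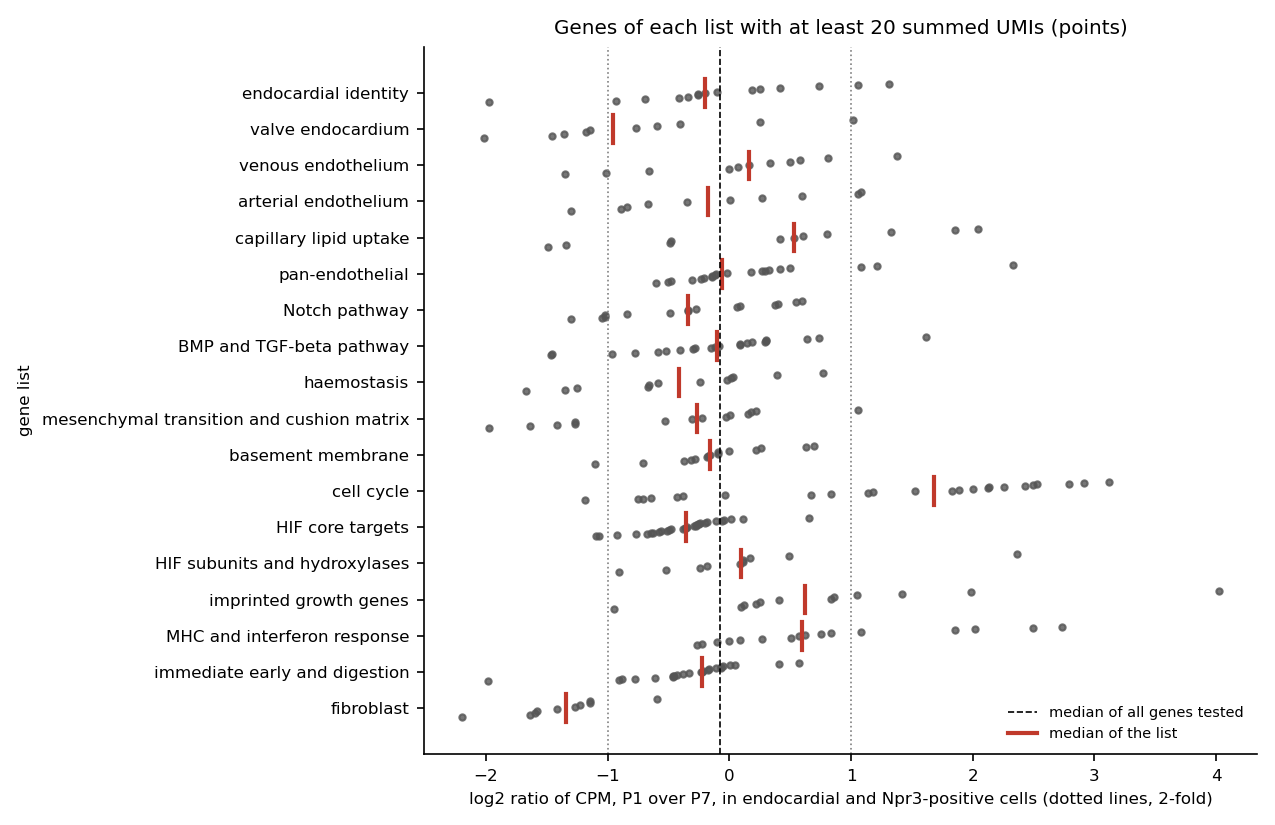
The log2 ratio of CPM at P1 over P7 in the endocardial-like cells for each gene of 18 lists with at least 20 summed UMIs (points), with the list median (red bar), the median of all genes tested (dashed line) and dotted lines at 2-fold. The cell cycle list is spread towards P1, and the valve endocardium and fibroblast lists towards P7, whereas the pan-endothelial and BMP lists are centred near the median of all genes.

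Imprinted growth genes and interferon genes stood higher at P1. The imprinted list had a median of 0.62, against 0.43 in the other gated endothelium. In it 4 of 12 genes were at least 2-fold higher at P1 and none at P7, beside 4.16% and 4.45% of all genes tested. Besides Dlk1 these were Mest, with 744 CPM at P1 and 187 CPM at P7 (log2 ratio 1.99, 1.79 to 2.19), Cdkn1c, a cell cycle inhibitor gene, with 1491 and 557 CPM (1.42, 1.31 to 1.54), and Peg3 (1.04). H19 (0.84) and Igf2 (0.25) were not 2-fold apart. In the MHC and interferon list 5 of 16 genes were higher at P1 and none at P7, with a median of 0.60 against 0.52 in the other endothelium. Bst2, an antiviral membrane protein gene, had 232 and 63.8 CPM (1.85, 1.52 to 2.22) and was found in 79.8% and 46.2% of the cells, and Isg15 had 95 and 7 UMIs (2.02, 1.01 to 3.46). The interferon-induced genes Ifit1 (2.74, 0.71 to 8.65) and Igtp (2.50, 0.87 to 5.89) had 31 and 44 UMIs at P1 and 1 and 2 UMIs at P7. Tap1, a peptide transporter gene of antigen presentation, was the fifth.

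For lists of other endothelial types, the shares of all genes tested were likewise 4.16% higher at P1 and 4.45% higher at P7. In the capillary lipid uptake list 3 of 11 genes were at least 2-fold higher at P1 and 2 at P7, with a median of 0.53, and in the venous list 1 of 11 was higher at P1 and 2 at P7, with a median of 0.16. These were Ackr1 with 20 and 2 UMIs (1.38, -0.37 to 4.81), Sele with 19 and 12 UMIs (-1.01, -2.11 to 0.18) and Selp, and the intervals of the first pair included 0. The arterial list had 2 of 10 genes higher at P1 and 1 at P7, with a median of -0.17. Of 13 angiopoietin and VEGF genes 1 was higher at P7, the ligand gene Pgf (-1.29), and of 15 basement membrane genes Lama5 (-1.10). Cldn5, the claudin of endothelial junctions, had 77.8 CPM at P1 and 15.1 CPM at P7 (log2 ratio 2.33, 1.68 to 3.14), against 1154 and 1042 CPM in the other gated endothelium. Gpihbp1, which anchors lipoprotein lipase on capillaries, had 151 and 36.1 CPM (2.05) against 2068 and 2018 CPM. These levels are 2-fold or more below the other endothelium at both ages, and the part of free capillary RNA in them was not tested. In the pan-endothelial list 3 of 20 genes were higher at P1 (Cldn5, Robo4 and Sox17) and none at P7, with a median of -0.06. Ednrb, the endothelin receptor type B gene, had 523 CPM at P1 and 232 CPM at P7 (1.17, 0.99 to 1.36) and was the one gene of 8 endothelin and nitric oxide genes at 2-fold, while its ligand gene Edn1 had 263 and 201 CPM (0.38). None of the 5 natriuretic peptide genes tested was 2-fold apart. The ratio of Nppc was 0.05, but it lay between -2.90 and 5.32 under the alternatives and so gave no direction.

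Genes of the response to low oxygen were examined because hypoxia was the subject of the study. None of the 30 core targets of hypoxia-inducible factor (HIF) tested was 2-fold higher at P1 and 2 were higher at P7, beside 4.16% and 4.45% of all genes tested. The median was -0.35, against 0.04 in the other gated endothelium and -0.08 for all genes. The 2 genes were Ankrd37, with 18.1 CPM at P1 and 38.6 CPM at P7 (log2 ratio -1.10, -1.65 to -0.52), and Bhlhe40, with 30.4 and 63.8 CPM (-1.07, -1.50 to -0.63). Glycolytic genes in the list had smaller ratios, such as Pfkl (-0.92), Ldha (-0.35) and Pgk1 (-0.06), and Vegfa had 19.2 and 24.3 CPM (-0.36, -0.98 to 0.33). Hif1a had 74.9 and 140 CPM (-0.91, -1.19 to -0.62), without reaching 2-fold, and Epas1, which encodes HIF-2α, had 144 and 133 CPM (0.11). Hif3a was the only one of 10 HIF subunit and hydroxylase genes at 2-fold, with 40 UMIs at P1 and 2 at P7 (2.36, 0.72 to 5.76). In the list of immediate early and digestion-response genes, which was read because the digestion times differed, 1 of 24 genes, Nr4a1, was 2-fold apart and the median was -0.23.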

How the data were processed

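Single cell RNA-seq (10x Genomics, 3′) was performed on 1 library of P1 and 1 of P7 hearts. Per the submitters' processing notes the authors used Cell Ranger 3.1.0 with mm10, and they deposited raw UMI counts per gene and barcode. All values were computed here from those counts in python 3.11.15 (numpy 2.4.6, scipy 1.17.1, pandas 2.3.3, matplotlib 3.10.9), and 0 columns of per-sample values were left unused. Rows of the same symbol were summed. Doublets were limited by the absence of Ptprc and Pdgfra and the maximum of 8000 genes, and no doublet caller was run. The mitochondrial limit of 20% was chosen here, as the methods give no value. Harmony and MAST, which the study used, were not run, since MAST takes cells as replicates.

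UMIs of each gene were summed over the endocardial-like cells of a library and scaled to CPM. Ratios are log2 with 0.5 counts added and exact conditional intervals, a gene counted as different at 2-fold or more with at least 20 summed UMIs, and the 25 genes of the gate were left out of the counts. Levels of different genes should not be read as relative amounts of transcript, as 3′ capture differs between genes. The most abundant gene of a list is the one with the most UMIs. Ratios and intervals were tested on simulated counts. Positions are from GENCODE M21 on GRCm38.

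Members and lists were chosen with earlier results of these data known. Genes named are the rule's genes and Vwf, the 12 largest ratios in each direction between ages (at least 50 UMIs in the higher library; Xist, Y-linked and mitochondrial genes left out) and over the other gated endothelium, the 4 largest ratios within each of 30 lists, and the identity, venous and natriuretic genes. Gene models are given by count, and some items are not reported here. Other list genes, and those compared by Npr3, were named after their values were seen. In total 21 alternatives varied the mitochondrial limit, the gate, the list, depth, doublets, scaling, counts added and the minimum of UMIs.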

Additional observations from a re-analysis of the deposited data

Results flagged for a closer look

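In 5 of the genes named by rule the endocardial-like cells and the other gated endothelium were at least 2-fold apart between P1 and P7 in opposite directions, with both counting intervals on their own side of 0. The log2 ratios of P1 over P7 were -5.32 for Fmo2, -2.86 for Serpinb9b, -2.02 for Wnt4, -1.98 for Hapln1 and -1.35 for Selp in the endocardial-like cells, and 1.2, 1.81, 1.54, 1.03 and 1.38 in the other gated endothelium. With 1 library per age the difference between the 2 populations was not tested. Cldn11, named for its list and not by that rule, also had opposite ratios (1.02 and -1.62). The direction in the endocardial-like cells changed for Serpinb9b and Hapln1 under an alternative and was kept for Fmo2, Wnt4 and Selp under each alternative that gave a value, where the values nearest to 0 were -3.42, -0.02 and -0.44. With the gate applied after thinning the ratio in the endocardial-like cells was 0.083 for Serpinb9b, 0.86 for Hapln1 and -0.27 for Wnt4, and that of Wnt4 was -0.02 without the deepest 10% of the cells, an alternative chosen after seeing the data. Levels in the other gated endothelium were low, at most 5.34 CPM for any of the 5 genes. That endothelium included gated cells with at least 2 of the 4 genes that were left out, 58 at P1 and 33 at P7. These held 18 of its 18 Serpinb9b UMIs at P1 and 7 of 9 at P7, but 5 of 32 and 0 of 25 Fmo2 UMIs. In them Wnt4 had 71.9 and 52.7 CPM, Hapln1 24.7 and 58.5 CPM and Selp 12.9 and 9.75 CPM. Their part in the opposite ratios was not tested. Among the 10463 genes tested in both populations 148 were 2-fold apart in both with the same sign and 25 with opposite signs. Selp, an adhesion molecule gene of veins and platelets, had 26 UMIs at P1 and 21 at P7, and its ratio was -0.64 without the cell with the most UMIs in each library.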

How the results depend on the processing

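No paired analysis was possible because there was 1 library per age. The shares of 15.5% and 2.68% were 13.7% at P1 with a gate of 1 endothelial UMI, 13.2% and 2.15% with at least 3 of the 4 genes, 13.2% at P1 without Plvap, and 12.2% and 1.91% with the gate applied after thinning. The 437 genes higher at P1 and 468 higher at P7 became 248 and 245 with UMIs thinned to 2000 per cell, 210 and 227 with at least 50 summed UMIs, 1194 and 1858 with no minimum, and 112 and 90 without cells holding 2 genes of another cell type, which left 9 cells at P1 and 2 at P7. Without a minimum 2304 genes were higher in the endocardial-like cells than in the other endothelium in both libraries. The number lower stayed within 1.5 times of 710.

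Of 84 named genes that were 2-fold apart with age, 11 changed sign under some alternative and 41 fell below 2-fold under some alternative. Those that changed sign were Rgs5 (0.51 with a gate of 1 endothelial UMI, 2.08 without cells with a lung-gene UMI and 0.75 without the cell with the most UMIs), Mfap4 (0.025 with a gate of 6 UMIs and 0.31 in cells with an Npr3 UMI), Fbln5 (-0.46 with at least 3 of the 4 genes and -0.55 without cells with a lung-gene UMI), Tcf21 (0.020 without Plvap), Lfng (0.29 in cells with an Npr3 UMI) and Procr (0.50 in the 9 and 2 cells named above). With the gate applied after thinning they were Serpinb9b (0.083), Hapln1 (0.86), Wnt9b (0.085), Thy1 (0.21) and Clec4g (1.93). The cause was not tested. Of 524 list medians under the alternatives 71 moved by 0.25 or more. The medians of the identity (-0.31 to 0.22), MHC and interferon (-0.06 to 0.75) and venous lists (-0.61 to 0.33) were among those that crossed 0, and in each of them the extreme across 0 came from the 9 and 2 cells named above. The median of the cell cycle list lay between 0.90 and 2.11, that of the valve list between -1.06 and -0.46 and that of the HIF targets between -0.63 and -0.24.

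Of the 21 alternatives for the comparison of ages 3 were chosen after seeing the data, namely the removal of cells with 2 genes of another type after thinning with the fibroblast list left out, of the deepest 10% of cells, and, for each gene, of the cell with the most UMIs in each library. The last left 562 genes higher at P1, of which 385 were among the 437, and 337 higher at P7, of which 321 were among the 468. The P7 set of 91 cells limits the depth most, since 3 UMIs there correspond to 2.52 CPM.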

Other observations

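Genes of lymphatic and sinusoidal endothelium were also detected in the endocardial-like cells. The 7 lymphatic genes tested had a median of 0.58. Of these genes 2 were at least 2-fold higher at P1 and 2 at P7, beside 4.16% and 4.45% of all genes tested. Those higher at P1 were Clca3a1, at 86.6 CPM in P1 cells and 19.3 CPM in P7 cells (log2 ratio of P1 over P7 2.14), and the hyaluronan receptor gene Lyve1, with 82.3 and 26 CPM (1.64). Both had ratios of the same sign in the other gated endothelium, at 2.27 and 2.59. The genes higher at P7 were Thy1 (-1.17, but 0.21 with the gate applied after thinning) and Fxyd6, a regulator of ion transport. Fxyd6 had 123 and 315 CPM (-1.36), and -1.41 in the other gated endothelium. Of the few sinusoidal endothelial genes examined, Oit3 had 46.1 CPM at P1 and 3.36 CPM at P7. Clec4g had 16.8 and 35.3 CPM against 0.386 and 0.823 CPM in the other gated endothelium. Stab2, Alb and Afp had no UMI in the endocardial-like cells. Clec4g was detected in 26 of 267 and 10 of 91 cells, and its ratio of P1 over P7 (-1.08) changed sign with the gate applied after thinning.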
